A study of Mus musculus with 56 samples.

Results

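The potassium channel genes are the 93 protein-coding genes whose symbol begins with Kcn, with 1 further Kcn gene set aside by the selection rule. They were chosen by name alone, from 47971, 45682 and 55385 genes listed for the astrocyte, heterozygous and knockout lines, and all 93 were listed for all 3 lines with at least 1 count. By the letters after Kcn they form 21 families, the largest being Kcnj and Kcnk with 14 genes each, Kcna and Kcnh with 8 each, and Kcne and Kcnq with 5 each. Potassium channels let potassium ions leave or enter the cell and so set the resting potential and end the action potential. Voltage-gated pores (Kcna to Kcnd, Kcnh, Kcnq) work with silent pore subunits (Kcnf, Kcng, Kcns, Kcnv), with membrane accessory subunits (Kcne, Kcnmb) and with partners in the cytosol (Kcnab, Kcnip), while calcium-activated (Kcnma, Kcnn), sodium-activated (Kcnt), inward-rectifying (Kcnj) and leak (Kcnk) channels open without depolarisation or modify firing. In the developing cortex neurons carry most of these channels, astrocytes take up potassium through inward rectifiers and leak channels, and microglia hold their resting potential with leak channels.

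RNA came from barrel cortex, the whisker area of the cerebral cortex, of mice aged 5 postnatal days (P5), after the whiskers of 1 side, the right, had been cauterised on P4, 24 h before collection. By translating ribosome affinity purification, ribosomes that carried the ribosomal protein L10a fused to the green fluorescent protein EGFP in 1 cell type were captured as the bound fraction, and the RNA left over was the unbound fraction. In the astrocyte line the tag was driven by Aldh1l1, as Aldh1l1::eGFPL10a, and no tamoxifen was given. In the heterozygous line, Cx3cr1CreErt2/+(Litt) Eef1a1LSL.eGFPL10a/+, and in the knockout line, Cx3cr1CreErt2/CreErt2(Litt) Eef1a1LSL.eGFPL10a/+, tamoxifen (50 µg by mouth on P1, P2 and P3) switched the tag on in cells with Cre from the Cx3cr1 gene, which among brain cells marks microglia. CreErt2 thus stands in 1 copy of Cx3cr1 in the heterozygous line and in both copies in the knockout line, and all animals of all 3 lines were lesioned on 1 side. There were 5 deprived and 5 control libraries per fraction in the astrocyte line and in the knockout line, and 4 deprived and 4 control libraries per fraction in the heterozygous line.

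The total count per library was 10928457 to 28584281 in bound and 10081228 to 24306936 in unbound astrocyte-line libraries, and 32772396 to 56689296 across the other 2 lines. Cx3cr1 itself had 0.336 to 1.25 CPM (counts scaled to a common library size after TMM) in bound knockout libraries and 6.52 to 12.4 CPM in bound heterozygous libraries. The 15 microglial marker genes were higher in bound than in unbound RNA in 15 of 15 cases in both microglial lines, and 14 of 15 astrocyte markers were higher in the bound RNA of the astrocyte line. Among all genes 31.7%, 31.4% and 31.5% were higher in bound RNA of the heterozygous, knockout and astrocyte lines. The bound fractions were mixtures all the same: the 15 neuronal markers summed to 8912 to 11675 CPM in bound astrocyte-line libraries and to 10045 to 14191 CPM in the bound libraries of the other 2 lines, where the 15 microglial markers summed to 128 to 497 CPM. In such mixed RNA, fewer cells of a type and less RNA per cell cannot be told apart. The library names of the heterozygous line go against its titles. The libraries titled deprived came from pieces named 14L, 15L, 17L and 17R and those titled control from 14R, 15R, 21L and 21R, so mouse 17 gave only deprived and mouse 21 only control libraries. The groups below follow the titles, and the counts of members called and the leading members are also given by side letter, left against right.

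The promoters of 3 members on which the results turn are shown: Kcne1l, raised in bound astrocyte-line RNA, Kcnk13, a channel known from microglia that was raised in bound RNA of both microglial lines with overlapping ranges, and Kcnh5, lower in deprived heterozygous tissue. Each run holds 250 bases before and 50 bases after the gene's start from RefSeq, build GRCm38.p6, written 5′ to 3′ on the gene's strand, with matches to the GC box GGGCGG on either strand in capitals.
Kcne1l, chrX:142306149-142306448, minus strand: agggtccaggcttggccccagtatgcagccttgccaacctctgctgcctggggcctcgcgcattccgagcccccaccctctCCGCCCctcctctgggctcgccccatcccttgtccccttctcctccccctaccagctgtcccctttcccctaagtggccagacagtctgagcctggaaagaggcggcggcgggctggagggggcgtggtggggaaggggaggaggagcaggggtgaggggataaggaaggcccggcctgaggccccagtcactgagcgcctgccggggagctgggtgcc
Kcnk13, chr12:99964249-99964548, plus strand: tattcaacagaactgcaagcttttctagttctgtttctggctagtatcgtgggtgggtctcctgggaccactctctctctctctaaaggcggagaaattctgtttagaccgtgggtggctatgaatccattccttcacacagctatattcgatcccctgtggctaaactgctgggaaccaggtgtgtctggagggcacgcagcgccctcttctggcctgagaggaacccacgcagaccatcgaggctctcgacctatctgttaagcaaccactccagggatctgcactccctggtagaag
Kcnh5, chr12:75177283-75177582, minus strand: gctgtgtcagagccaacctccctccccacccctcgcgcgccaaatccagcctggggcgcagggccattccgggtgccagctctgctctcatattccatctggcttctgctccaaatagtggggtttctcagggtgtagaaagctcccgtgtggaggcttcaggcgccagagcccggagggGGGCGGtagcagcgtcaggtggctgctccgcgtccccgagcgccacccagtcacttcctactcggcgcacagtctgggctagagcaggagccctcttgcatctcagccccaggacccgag
Kcne1l and Kcnh5 held 1 GC box each and Kcnk13 held 0. The RefSeq table gave 93 windows for 68 of the members, of which 47.3% held GGGCGG or its reverse complement, against 35.7% of all 32851 windows. The TATA box TATAAA was in 5.38% of the members' windows, against 13.6% of all windows, and none of the 3 promoters shown held it. The motif GAGGAAGT, which is bound by the myeloid factor PU.1, was in 0 of the 93 windows, against 3.2% of all windows. Each motif was searched on both strands and counted apart from the others, and a match is a string of letters, not a site shown to be used.

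Kcnq3 led the potassium channel RNA of every line and fraction. Levels between genes are given as CPM per kb of exon. Kcnq3, a subunit of the channel that carries the M-current and restrains repetitive firing, was that leading member. Its level was 52.8 ± 6.29 CPM per kb in bound and 51.3 ± 2.96 CPM per kb in unbound RNA of the astrocyte line (SD, n = 10 each), 49.2 ± 9.15 and 35.4 ± 3.44 CPM per kb in bound and unbound heterozygous RNA (SD, n = 8 each), and 53.3 ± 6.52 and 37.8 ± 3.83 CPM per kb in bound and unbound knockout RNA (SD, n = 10 each). The gap between Kcnq3 and the next gene exceeded the larger of their SDs in all 6 combinations of line and fraction.

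Behind Kcnq3 in bound RNA came Kcnip3, a calcium-binding partner of A-type channels, Kcnma1, the pore of the large-conductance calcium-activated channel, Kcnd2, an A-type pore, and Kcnh7, of the ERG channels. In bound astrocyte-line RNA these 4 genes had 37.7 ± 3.64, 26.6 ± 3.32, 19.6 ± 2.02 and 15.5 ± 1.86 CPM per kb (SD, n = 10). Kcne1l, an accessory subunit of the Kcne family, ranked between Kcnd2 and Kcnh7 there with 16.3 ± 2.33 CPM per kb, a gap to Kcnh7 smaller than its SD. In bound heterozygous RNA the order after Kcnq3 was Kcnma1 (23.5 ± 4.38 CPM per kb), Kcnh7 (16.3 ± 3.21), Kcnd2 (16.1 ± 1.71), Kcnip2 (14.7 ± 1.35) and Kcnip3 (13.7 ± 1.39) (SD, n = 8). Kcnma1 lay above Kcnh7 by more than the larger SD, and no gap between neighbours among the last 4 exceeded it. Bound knockout RNA held the same 5 genes after Kcnq3, with Kcnma1 at 25.4 ± 2.29, Kcnd2 at 16.6 ± 1.77, Kcnh7 at 16.2 ± 2.68, Kcnip2 at 13.9 ± 1.51 and Kcnip3 at 13.8 ± 1.44 CPM per kb (SD, n = 10). The unbound orders differed from these. Kcnv1, a silent subunit, followed Kcnd2 in unbound astrocyte-line RNA with 18.5 ± 2.43 CPM per kb (SD, n = 10), above Kcnh7 with 15.9 ± 1.56 CPM per kb. In unbound heterozygous RNA Kcnip4 with 11.9 ± 1.31 and Kcnv1 with 11.1 ± 1.06 CPM per kb stood above Kcnh7 with 9.59 ± 1.33 CPM per kb (SD, n = 8), and in unbound knockout RNA they had 12.7 ± 1.70 and 10.9 ± 1.65 CPM per kb, above Kcnh7 with 9.82 ± 1.45 CPM per kb (SD, n = 10).

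**Figure D1:**
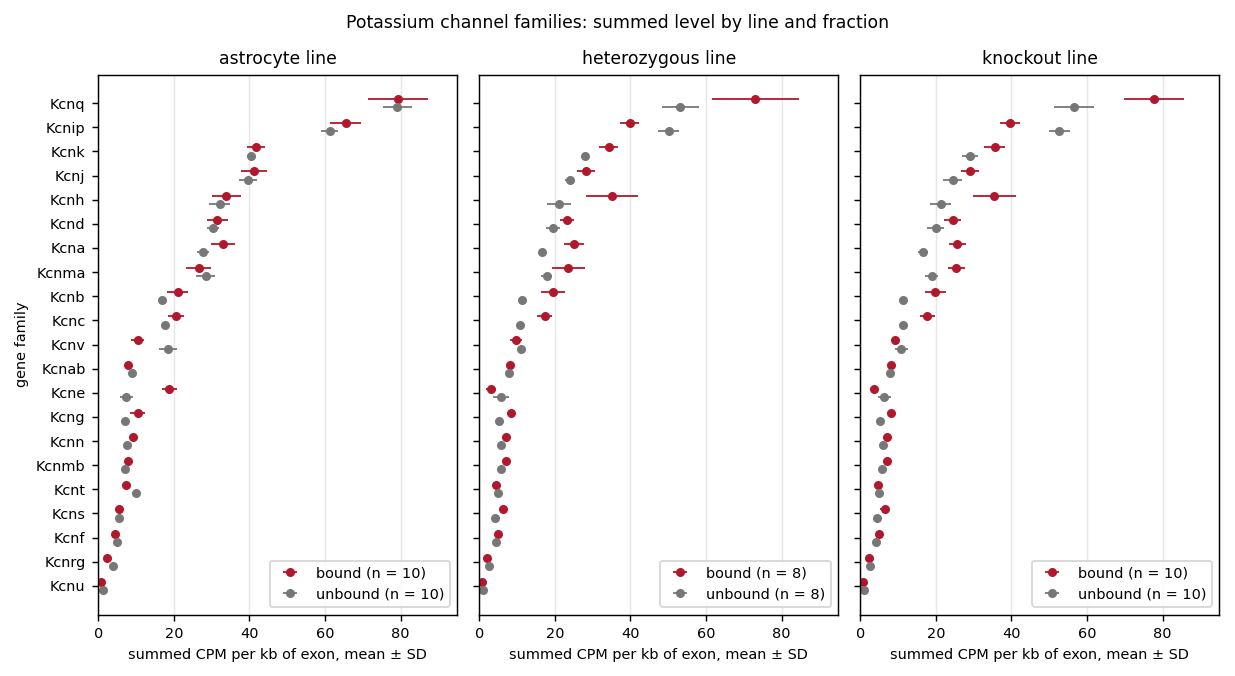
Summed CPM per kb of exon (x axis) of each of the 21 gene families (y axis) in bound and unbound RNA of each line, as the mean ± SD over libraries. Kcnq leads in every panel, and Kcne lies at 18.8 CPM per kb in bound RNA of the astrocyte line, to the right of its unbound point at 7.46 CPM per kb.

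Summed by family, Kcnq had the highest mean in all 6 combinations of line and fraction, from 53.2 CPM per kb in unbound heterozygous RNA to 79.3 CPM per kb in bound astrocyte-line RNA, and Kcnip came next in all 6. Some gaps were smaller than the larger SD. Unbound Kcnq and Kcnip had 53.2 ± 4.83 and 50.1 ± 2.8 in the heterozygous line, and 56.6 ± 5.34 and 52.7 ± 2.68 in the knockout line. Bound Kcnip and Kcnh had 39.8 ± 2.52 and 35.2 ± 6.85 in the heterozygous line, and 39.7 ± 2.62 and 35.5 ± 5.68 in the knockout line. The plot of family levels shows that the Kcne family, whose sum is mostly Kcne1l, differed most in proportion between fractions of the astrocyte line. All 93 genes together summed to 479 ± 33.3 CPM per kb in bound and 456 ± 17.6 CPM per kb in unbound RNA of the astrocyte line. The sums were 381 ± 38.7 and 311 ± 13.4 CPM per kb in bound and unbound heterozygous RNA, and 393 ± 30.3 and 322 ± 21.2 CPM per kb in bound and unbound knockout RNA. Each line has its own count table, so a level that differs between lines cannot be told apart from a difference between tables.

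The low end was also shared. Under 1 CPM in every line and fraction were 19 members, and 6 of these stayed under 0.1 CPM (Kcna10, Kcna7, Kcnk15, Kcnk16, Kcnk18 and Kcnk7). From 40 to 49 members reached 10 CPM, and from 4 to 10 reached 100 CPM, depending on line and fraction. Exons of 28 members overlap another annotated gene, mostly on the opposite strand, and whether counting used strand is not given in the sources used here, so reads of the pair cannot be told apart. Among the genes given with values here this holds at least for Kcnab2, Kcnd3, Kcng2, Kcnh7, Kcnip4, Kcnj6, Kcnj9, Kcnj15, Kcnk1, Kcnk2, Kcnk3, Kcnma1, Kcnn1, Kcnq5 and Kcnt2.

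The first comparison asked which channel RNAs were on the tagged ribosomes, bound against unbound, within each line. In the astrocyte line 28 of the 77 members that passed the filter on low counts were higher and 12 were lower in bound RNA (edgeR quasi-likelihood test, Benjamini-Hochberg adjusted over all genes, two-sided, threshold 0.05), against 31.5% higher and 27.6% lower among all 18324 genes. In either direction 59.1% of all genes passed. The share of members that rose, 36.4%, lay near that background, and the share that fell, 15.6%, lay below it. The median log2 ratio was 0.04 over the members and 0.03 over all genes. In the heterozygous line 46 of 80 members were higher and 11 lower in bound RNA, against 31.7% higher and 30.7% lower among all 19275 genes. In the knockout line 43 of 80 were higher and 9 lower, against 31.4% and 30.3% of 19681 genes. In either direction 62.4% of all genes passed for the heterozygous line and 61.7% for the knockout line. The members' shares were 57.5% higher and 13.8% lower in the heterozygous line and 53.8% higher and 11.2% lower in the knockout line. The members' median log2 ratio was 0.34 for the heterozygous and 0.36 for the knockout line, against -0.01 over all genes in both. On library totals alone, without TMM scaling, the median of all genes moved by 0.19 in heterozygous and 0.24 in knockout RNA. The split of all genes was then 8314 higher and 3842 lower in the heterozygous line, against 6109 and 5919 with TMM, and 9047 higher and 3317 lower in the knockout line, against 6187 and 5960 with TMM. The members then numbered 57 higher and 6 lower in the heterozygous line and 60 higher and 5 lower in the knockout line.

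Exon length moved with these ratios. Across all genes the Spearman correlation of the log2 ratio with exon length was 0.37 in the heterozygous line (n = 19259) and 0.40 in the knockout line (n = 19662), and 0.07 in the astrocyte line (n = 18310). Across the tested members it was 0.23, 0.24 and 0.03 in the same 3 lines (n = 80, 80 and 77). The members' median exon length was 4.53 kb in the heterozygous line, against 3.78 kb over all genes tested. The genes of a line share its libraries, so these are descriptions, and the part of length in the members' ratios was not tested.

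Accessory subunits and partners are given first. Kcne1l (chromosome X, 142304752 to 142306294, GRCm38) encodes a single-pass membrane subunit of the Kcne family, whose members alter the gating of Kcnq and other pores. In the astrocyte line its bound libraries held 21.4, 24.1 and 34.1 CPM (lowest, median and highest of 10), against 5.24, 7.07 and 8.04 CPM in unbound libraries. The fractions did not overlap, and the log2 ratio was 1.90 ± 0.08 (SE, adjusted p = 5.07e-19, edgeR). In the heterozygous line bound libraries held 1.72, 2.83 and 3.38 CPM (lowest, median and highest of 8), against 4.05, 5.62 and 6.07 CPM in unbound libraries. Here too the fractions did not overlap, in the other direction, with a log2 ratio of -1.02 ± 0.13 (SE, adjusted p = 3.67e-07, edgeR). In the knockout line the log2 ratio was -1.0 ± 0.13 (SE, adjusted p = 2.13e-07, edgeR), and bound RNA was lower in 10 of 10 pieces.

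Kcnip3 (chromosome 2, 127456498 to 127522094), a calcium sensor that binds A-type channels and also acts in the nucleus, followed the same pattern. Its bound libraries in the astrocyte line held 117, 131 and 161 CPM (lowest, median and highest of 10), against 74.2, 81.4 and 86.9 CPM in unbound libraries, with no overlap. The log2 ratio was 0.72 ± 0.05 (SE) there, -0.38 ± 0.06 in the heterozygous line and -0.48 ± 0.06 in the knockout line, all past the threshold. Its relative Kcnip4 (chromosome 5, 48389502 to 49524907), which also modulates A-type channels, was lower in bound RNA of all 3 lines. Its log2 ratios were -1.02 ± 0.06 in the astrocyte line, -1.05 ± 0.06 in the heterozygous line and -1.03 ± 0.08 in the knockout line (SE), and bound and unbound libraries did not overlap in any line. In the astrocyte line bound libraries held 24.1 to 33.5 CPM of Kcnip4, against 48.8 to 62.7 CPM in unbound libraries.

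The members were also counted as cytosolic partners and membrane subunits, beside the 27.6%, 30.7% and 30.3% of all genes that were lower in the 3 lines. Of the 8 genes of Kcnab, Kcnip and Kcnrg, 1 was higher and 4 were lower in bound RNA of the astrocyte line, 2 and 5 in the heterozygous line, and 1 and 4 in the knockout line. Their median log2 ratios were -0.26, -0.28 and -0.20 in these lines. Of the 69, 72 and 72 membrane subunits tested, 27, 44 and 42 were higher and 8, 6 and 5 lower, with medians of 0.05, 0.39 and 0.43. Kcnrg, a soluble protein that hinders the assembly of voltage-gated channels, had a log2 ratio of -0.88 ± 0.13 (SE) in the astrocyte line and -0.37 ± 0.10 in the heterozygous line, and of -0.22, not past the threshold, in the knockout line. No test of the difference between the 2 classes was made.

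**Figure D2:**
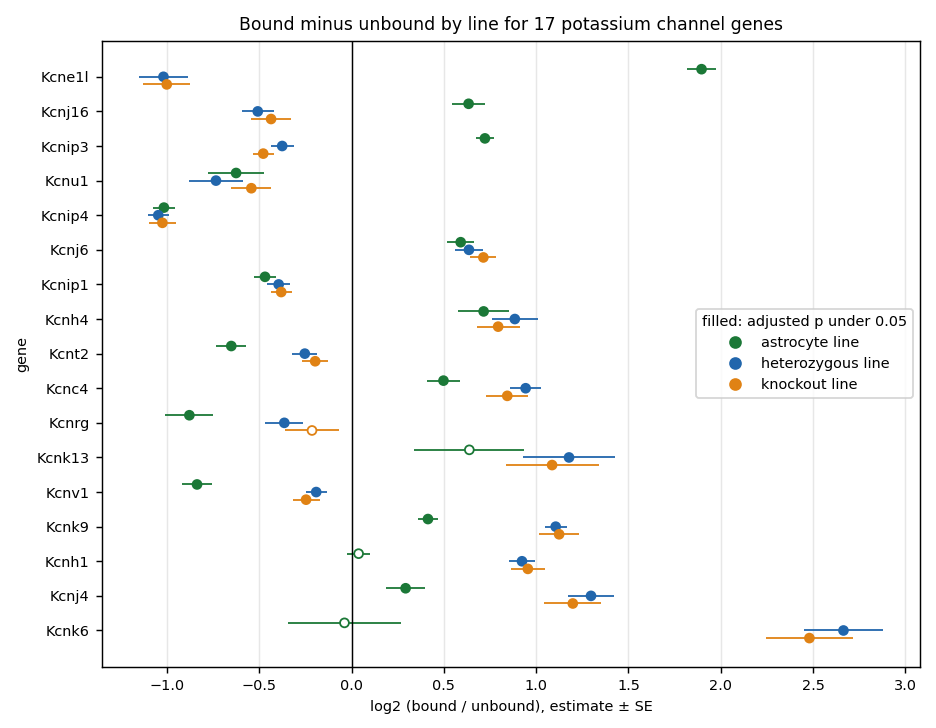
Log2 ratio of bound over unbound RNA (x axis, estimate ± SE) for 17 members (y axis) in the astrocyte, heterozygous and knockout lines; filled points passed the adjusted threshold. Kcne1l, Kcnj16 and Kcnip3 lie right of 0 in the astrocyte line and left of 0 in the other 2 lines, whereas Kcnk6 lies near 0 in the astrocyte line and at 2.67 and 2.48 in the heterozygous and knockout lines.

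Among inward rectifiers, Kcnj16 (chromosome 11, 110968033 to 111027968), a subunit that makes its partners sensitive to pH and is known from astrocytes, was higher in bound RNA of the astrocyte line. Bound libraries held 20.9, 30.7 and 36.2 CPM there (lowest, median and highest of 10), against 16.2, 19.4 and 21.7 CPM in unbound libraries. The ranges overlapped slightly, but bound RNA was higher in 10 of 10 pieces, and the log2 ratio was 0.63 ± 0.09 (SE, adjusted p = 4.23e-07, edgeR). In the heterozygous line its log2 ratio was -0.51 ± 0.09 (SE) and in the knockout line -0.44 ± 0.11 (SE), both past the threshold, but on library totals alone the knockout ratio was -0.19 (adjusted p = 0.113, edgeR). Kcnj15, another inward rectifier, was at 1.25 ± 0.718 CPM in bound and 0.394 ± 0.144 CPM in unbound astrocyte-line RNA (SD, n = 10 each), from 3 to 57 counts a library, with a log2 ratio of 1.67 ± 0.30 (SE, adjusted p = 1.94e-05, edgeR). Kcnj4, a strong inward rectifier of forebrain neurons, had log2 ratios of 0.29 ± 0.11, 1.30 ± 0.12 and 1.20 ± 0.15 (SE) in the astrocyte, heterozygous and knockout lines, all past the threshold. Kcnj2, the strong rectifier that activated microglia are known to use, had ratios of 0.05 ± 0.10 (not past the threshold), 0.48 ± 0.08 and 0.61 ± 0.08 (SE) in these lines. Kcnj8, the pore of the ATP-sensitive channel of mural cells, passed the threshold in none of the 3 lines.

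The leak channels held the member most raised on the ribosomes of the microglial lines. Kcnk6 (chromosome 7, 29221926 to 29232515), a weak leak channel through which macrophages lose potassium when the inflammasome is activated, had 1.34, 2.82 and 4.08 CPM in bound heterozygous libraries (lowest, median and highest of 8), against 0.157, 0.473 and 0.665 CPM in unbound libraries. The fractions did not overlap, and the log2 ratio was 2.67 ± 0.22 (SE, adjusted p = 1.76e-10, edgeR). The knockout line gave 1.37, 2.32 and 3.82 CPM in bound libraries (lowest, median and highest of 10), against 0.104, 0.454 and 0.588 CPM in unbound libraries, and a log2 ratio of 2.48 ± 0.23 (SE, adjusted p = 1.55e-09, edgeR). In the astrocyte line its level was 0.613 ± 0.275 CPM in bound and 0.590 ± 0.278 CPM in unbound RNA (SD, n = 10 each).

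Kcnk13 (chromosome 12, 99964499 to 100062682), the leak channel known to set the resting potential of microglia, was near 1 CPM. It averaged 1.19 ± 0.426 CPM in bound and 0.531 ± 0.175 CPM in unbound heterozygous RNA (SD, n = 8 each), was higher in the bound library of 8 of 8 pieces, and had a log2 ratio of 1.18 ± 0.25 (SE, adjusted p = 0.000265, edgeR). The log2 ratio was 1.09 ± 0.25 (SE, adjusted p = 0.000604, edgeR) in the knockout line and 0.64 ± 0.30 (SE, adjusted p = 0.0667, edgeR) in the astrocyte line. Kcnk9, an acid-sensitive leak channel of neurons at far higher levels, had log2 ratios of 0.41 ± 0.06, 1.11 ± 0.06 and 1.12 ± 0.11 (SE) in the astrocyte, heterozygous and knockout lines. Kcnk1 and Kcnk2, leak channels known from astrocytes, did not rise in bound astrocyte-line RNA: the ratio was -0.02 ± 0.06 (SE) for Kcnk1 and -0.18 ± 0.06 for Kcnk2, and only Kcnk2 passed the threshold. The remaining fixed astrocyte genes were mixed in that line. Bound RNA was higher in 10 of 10 pieces for Kcnn3, in 7 of 10 for Kcnk10 and in 1 of 10 for Kcnn2. Of 3 Kcnn genes tested there, 2 were higher and 1 lower past the threshold.

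Of the other channels that microglia or macrophages are known to use, Kcna3, a delayed rectifier, had log2 ratios of 0.21 ± 0.10 (SE, adjusted p = 0.0803, edgeR) for the heterozygous line and 0.20 ± 0.09 (SE, adjusted p = 0.0526, edgeR) for the knockout line. Kcnn4, the intermediate-conductance calcium-activated channel, did not pass the filter on low counts in any line taken alone. Kcna5, under 1 CPM on average in every line and fraction, was higher in bound RNA in 4 of 8 heterozygous and 6 of 10 knockout pieces.

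Several voltage-gated families were mostly higher in bound RNA of the microglial lines. Of the members tested, 6 of 8 Kcnh, 4 of 6 Kcna, 3 of 4 Kcnc and 2 of 3 Kcnd genes were higher in the heterozygous line, as were all 3 silent Kcns subunits. In these families 1 Kcnh gene was lower there. The knockout line had 6 of 8 Kcnh, 4 of 6 Kcna, 3 of 4 Kcnc, 3 of 3 Kcnd and 2 of 3 Kcns genes higher and 0 lower. Among all genes 31.7% were higher and 30.7% lower in the heterozygous line, and 31.4% and 30.3% in the knockout line. For Kcnq3 the ratio was 0.46 ± 0.06 for the heterozygous line and 0.49 ± 0.07 for the knockout line, both past the threshold, and 0.04 ± 0.05 in the astrocyte line, not past it. In the same heterozygous fractions 4 of 15 neuronal markers were higher and 8 lower, with a median log2 ratio of -0.18, and 7 of 10 cortical layer genes were higher and 2 lower, with a median of 0.23. Their part in the channels' ratios was not tested.

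Other members were lower in bound RNA of all 3 lines. Kcnu1, a pore known from sperm, had log2 ratios of -0.63 ± 0.15, -0.74 ± 0.15 and -0.54 ± 0.11 (SE) in the astrocyte, heterozygous and knockout lines. Kcnv1, a silent subunit of neurons, had ratios of -0.84 ± 0.08, -0.19 ± 0.06 and -0.25 ± 0.07, and the sodium-activated Kcnt2 had -0.65 ± 0.08, -0.25 ± 0.07 and -0.20 ± 0.07 (SE), all past the threshold. Kcnip1 fell too, by 0.47, 0.40 and 0.38 on the log2 scale.

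The difference between the astrocyte and the heterozygous line in the bound over unbound ratio was tested directly, over genes listed for all 3 lines. Of 84 members tested, 5 were higher in the astrocyte line and 32 were lower, against 18.7% higher and 17.7% lower among all 24464 genes, or 36.4% in either direction. The median difference was -0.27 over the members and 0.11 over all genes. The 5 higher members were Kcne1l, with a difference of 2.91 ± 0.17 (log2, SE, adjusted p = 5.09e-22, edgeR), Kcnj16 with 1.14 ± 0.15, Kcnip3 with 1.1 ± 0.08, and the low-level genes Kcnj15 with 1.51 ± 0.60 (adjusted p = 0.0400, edgeR) and Kcnk5 with 1.46 ± 0.56 (adjusted p = 0.0342, edgeR). Among the 32 lower members Kcnk6 had -2.73 ± 0.39 (adjusted p = 4.88e-08, edgeR), Kcnj4 had -1.0 ± 0.20, Kcnh1 had -0.88 ± 0.11, Kcnh7 had -0.80 ± 0.11 and Kcns3 had -0.74 ± 0.17 (log2, SE). In the fit on library totals alone, which moved the median of all genes by -0.21, 3 members were higher and 50 lower, and all genes split into 2857 higher and 7117 lower, against 4579 and 4332 with TMM. Line and count table cannot be told apart in this difference.

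The knockout and heterozygous lines did not differ detectably in the bound over unbound ratio of any member. Levels within a fraction were not tested between these lines. In edgeR's quasi-likelihood test 0 of 84 members and 0 of 24464 genes (0%) passed the adjusted threshold, with 0 members and 1004 genes at an unadjusted p under 0.05. DESeq2 called 0 members and 2 genes, and limma-voom called 0 members and 0 genes. The knockout minus heterozygous difference was -0.19 ± 0.34 for Kcnk6, 0.01 ± 0.17 for Kcne1l and -0.09 ± 0.37 for Kcnk13 (log2, SE). The labels give the molecule as polyA RNA in the knockout line and total RNA in the heterozygous line, so genotype and library type cannot be told apart here.

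Other genes of potassium handling were counted beside the channels, with no test of a difference. Of all genes 31.5%, 31.7% and 31.4% were higher and 27.6%, 30.7% and 30.3% lower in bound RNA of the astrocyte, heterozygous and knockout lines. Of the 16 channel partners and relatives tested (among them Hcn, Dpp and Lgi genes), 1 was higher and 7 lower in bound RNA of the astrocyte line, and 9 were higher and 3 lower in each of the heterozygous and knockout lines. Of the 11 pumps and cotransporters (Atp1 and Slc12 genes), which move potassium back into cells, 4 were higher and 5 lower in the astrocyte line, 4 and 6 in the heterozygous line, and 3 and 6 in the knockout line.

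The other question was how the channels changed 24 h after whisker cautery, deprived against control, in each line and fraction. In the astrocyte and knockout lines no member passed the threshold. In edgeR 0 of 77 members passed in bound and 0 of 72 in unbound astrocyte-line RNA, against 0% of all genes in both, with 6 and 7 members at an unadjusted p under 0.05. In the knockout line 0 of 79 passed in bound RNA, against 0% of all genes, and 0 of 78 in unbound RNA, against 0.0217%, with 4 and 5 members at an unadjusted p under 0.05. DESeq2 and limma-voom also called 0 members in these 4 comparisons. The members' median log2 differences were -0.03, -0.07, 0.01 and 0.03 in the 4 comparisons.

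The smallest p in bound astrocyte-line RNA was that of Kcnh8, a voltage-gated pore of the ELK group, with -0.89 ± 0.24 (log2, SE, adjusted p = 0.563, edgeR), followed by Kcnj9, a G-protein-gated inward rectifier, with -0.39 ± 0.11 (adjusted p = 0.612, edgeR), and Kcnrg with -0.62 ± 0.25 (adjusted p = 0.720, edgeR). In unbound RNA of that line it was Kcnh5 with -0.28 ± 0.07 (adjusted p = 0.634, edgeR), then Kcnma1 and Kcnh7 with -0.17 each. In bound knockout RNA Kcnip1 had -0.23 ± 0.09, Kcnmb2 0.36 ± 0.14 and Kcnd1 0.27 ± 0.12 (log2, SE), and in unbound knockout RNA Kcnj8 had 0.48 ± 0.17, Kcna4 -0.25 ± 0.10 and Kcnh2 -0.26 ± 0.11 (none past the threshold).

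**Figure D3:**
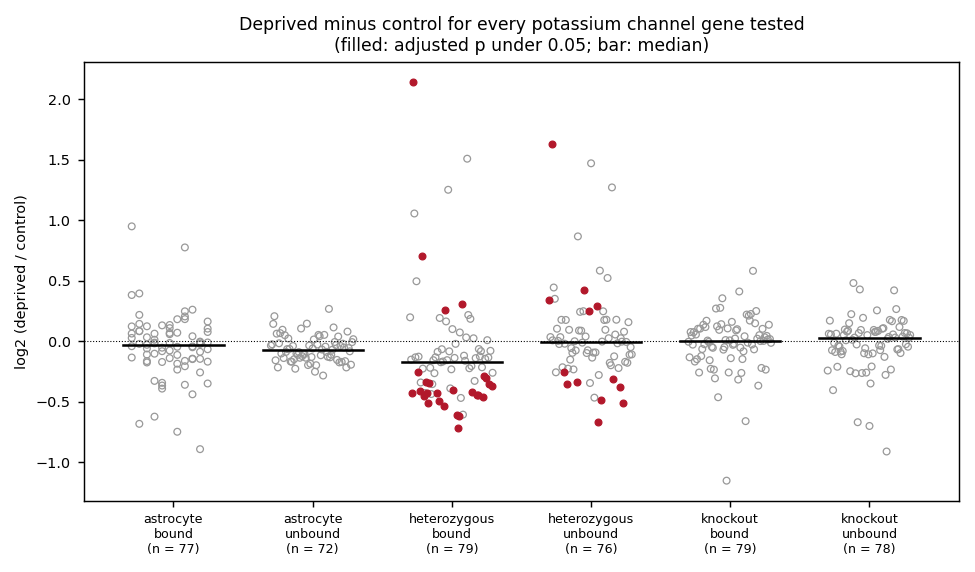
Log2 difference between deprived and control libraries (y axis) for every member tested in each line and fraction (x axis); filled points passed the adjusted threshold and bars are medians. Filled points appear in the heterozygous line alone, 27 in bound and 13 in unbound RNA, and most of the 27 lie below 0, with Kcng2 at 2.14 as the highest.

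In bound heterozygous RNA grouped by title, 4 of 79 members were higher and 23 lower in deprived libraries, against 5.67% higher and 5.24% lower among all 18001 genes, or 10.9% in either direction. The share of members that fell was 29.1% and the share that rose 5.06%. In unbound RNA 5 of 76 members were higher and 8 lower, which is 6.58% and 10.5% of them, against 3.06% and 1.28% of all 18073 genes, or 4.34% in either direction. The median log2 difference over members was -0.17 in bound RNA and close to 0 in unbound RNA, against 0.01 and 0.00 over all genes. Grouped by side letter, 0 members and 0 genes passed in either fraction. With mice 14 and 15 alone, which gave a left and a right piece each, and the mouse as a block, 2 members were higher and 14 lower in bound RNA and 4 and 5 in unbound RNA. Single libraries moved the counts: in bound RNA, 1 was higher and 14 lower without deprived library 2, 1 higher and 15 lower without control library 4, and 2 higher without control library 3. In unbound RNA, 1 was higher without deprived library 7, deprived library 8 or control library 8, 2 without control library 10, and 3 without deprived library 9 or 10. There 5 were lower without deprived library 7 or 9, 3 without deprived library 8 and 4 without deprived library 10. Whether the deprivation effect of the heterozygous line differs from that of the other lines was not tested.

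Kcnh5 (chromosome 12, 74897220 to 75177332), a voltage-gated pore of the EAG group whose RNA is concentrated in layer IV of the rat cortex, fell furthest among the members that passed. Bound deprived libraries held 19.9, 20.6, 28.4 and 29.5 CPM, against 39.8, 34.6, 46.7 and 41.2 CPM in bound control libraries. All 4 deprived libraries lay below all 4 control libraries, and the log2 difference was -0.72 ± 0.13 (SE, adjusted p = 0.00422, edgeR). Unbound deprived libraries held 14.0, 13.2, 17.3 and 17.4 CPM, against 25, 25.4, 24.4 and 26.6 CPM in unbound control libraries. The groups were apart here too, with a log2 difference of -0.67 ± 0.09 (SE, adjusted p = 0.000532, edgeR). By side letter the differences were -0.32 ± 0.26 in bound and -0.44 ± 0.19 in unbound RNA (SE), not past the threshold. In the other lines Kcnh5 had log2 differences of -0.23 ± 0.12 in bound astrocyte-line RNA, 0.09 ± 0.19 in bound and 0.09 ± 0.15 in unbound knockout RNA (SE). Its relatives Kcnh1 and Kcnh7 also fell in the heterozygous line, Kcnh1 by 0.51 in bound and 0.35 in unbound RNA and Kcnh7 by 0.42 and 0.31 on the log2 scale.

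**Figure D4:**
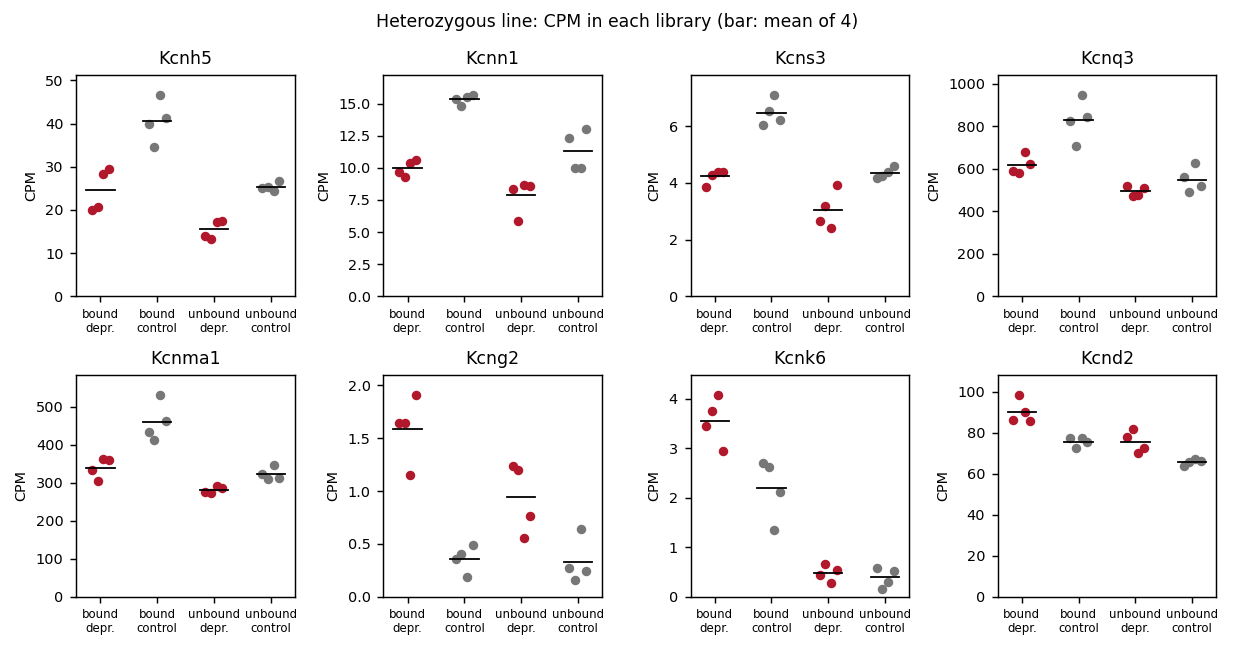
CPM (y axis, from 0) of 8 members in each of the 16 heterozygous libraries, grouped by fraction and by deprived or control title (x axis), with bars at group means. In bound RNA the 4 deprived libraries lie below the 4 control libraries for Kcnh5, Kcnn1, Kcns3, Kcnq3 and Kcnma1 and above them for Kcng2, Kcnk6 and Kcnd2.

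Among calcium-activated channels 1 of 3 Kcnn genes, Kcnma1 and 1 of 2 Kcnmb genes tested fell in bound heterozygous RNA, and among silent subunits 1 of 3 Kcns genes fell, 1 of 3 Kcng genes fell and 1 rose, Kcnv1 fell by 0.30 on the log2 scale, and Kcnf1 did not pass. Kcnn1 (chromosome 8, 70842049 to 70863258), a small-conductance calcium-activated channel that follows action potentials with a slow hyperpolarisation, held 9.66, 9.32, 10.4 and 10.6 CPM in bound deprived libraries, against 15.4, 14.8, 15.5 and 15.7 CPM in bound control libraries. The groups did not overlap, and the log2 difference was -0.62 ± 0.09 (SE, adjusted p = 0.00106, edgeR). Kcns3, a silent subunit that joins Kcnb pores, held 3.86, 4.29, 4.37 and 4.38 CPM in bound deprived libraries, against 6.03, 6.53, 7.11 and 6.22 CPM in bound control libraries, and fell by 0.61 on the log2 scale. Kcnma1 held 304 to 361 CPM in bound deprived libraries, against 411 to 530 CPM in bound control libraries, and fell by 0.43. Its accessory subunit Kcnmb2 fell by 0.54.

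Kcnq3 and Kcnq5, which carry the M-current, were among the genes that fell in bound heterozygous RNA. Kcnq3 held 589, 579, 679 and 623 CPM in bound deprived libraries, against 826, 705, 948 and 844 CPM in bound control libraries. The groups did not overlap, and the log2 difference was -0.42 ± 0.09 (SE, adjusted p = 0.00754, edgeR). In unbound RNA its difference was -0.11 ± 0.07 (SE, adjusted p = 0.495, edgeR). Kcnq5 had a log2 difference of -0.42 ± 0.07 in bound RNA (SE). The delayed rectifier Kcnb2 fell by 0.28 on the log2 scale, and Kcnc1, a pore of fast-spiking cells, fell by 0.37. Among inward rectifiers Kcnj9, Kcnj6 and Kcnj2 fell by 0.49, 0.45 and 0.44, and among leak channels Kcnk3, Kcnk10 and Kcnk9 fell by 0.46, 0.41 and 0.35 on the log2 scale.

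A few members rose in deprived heterozygous tissue. Kcng2, a silent subunit on chromosome 18 whose exons overlap an antisense gene, held 1.64, 1.64, 1.15 and 1.91 CPM in bound deprived libraries, against 0.352, 0.407, 0.182 and 0.493 CPM in bound control libraries. The groups did not overlap, and the log2 difference was 2.14 ± 0.32 (SE, adjusted p = 0.00110, edgeR), the largest among members that passed in the deprivation comparisons. Unbound deprived libraries held 1.24, 1.20, 0.559 and 0.766 CPM, against 0.268, 0.157, 0.639 and 0.241 CPM in unbound control libraries, where 1 control library lay above 1 deprived library, and the log2 difference was 1.63 ± 0.40 (SE, adjusted p = 0.0280, edgeR). By side letter the bound difference was 0.54 ± 0.69 (SE). In the other lines it was 0.38 ± 0.38 in bound astrocyte-line RNA and 0.05 ± 0.34 in bound knockout RNA.

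Kcnk6, the leak channel raised on microglial-line ribosomes, held 3.46, 3.75, 4.08 and 2.95 CPM in bound deprived libraries, against 2.70, 2.63, 1.34 and 2.12 CPM in bound control libraries. Every deprived library was above every control library, and the log2 difference was 0.71 ± 0.21 (SE, adjusted p = 0.0434, edgeR). In the same libraries the 15 microglial markers summed to 410 to 497 CPM in deprived and 235 to 348 CPM in control RNA. Of these 15 markers 8 were higher and 0 lower, against 5.67% and 5.24% of all genes, with a median log2 difference of 0.53. Other channels known from microglia did not all rise in these libraries. Kcnj2 fell, as given above. Kcna3 held 3.19 to 5.16 CPM in bound deprived and 4.44 to 6.58 CPM in bound control libraries, with overlapping ranges. Kcnk13 held 0.943 to 1.64 CPM in bound deprived and 0.575 to 1.9 CPM in bound control libraries, also with overlap. The part of the microglial RNA share in the Kcnk6 difference was not tested. Kcnd2 held 86.0, 98.4, 90.1 and 85.9 CPM in bound deprived libraries, against 77.4, 72.3, 77.2 and 75.3 CPM in bound control libraries, and rose by 0.26 ± 0.07 (SE). It rose by 0.25 ± 0.06 in unbound RNA, where Kcnd3, also an A-type pore, rose by 0.29 ± 0.08. In the 8 fits of unbound RNA that each left out 1 library, Kcnd2 missed the threshold in 5 and Kcnd3 in 6. Kcnab2, a cytosolic partner of Kcna pores, rose by 0.31 ± 0.08 in bound RNA. Without deprived library 2 or without control library 4, Kcng2 was the only member still higher in bound RNA. Kcnk6, Kcnd2 and Kcnab2 thus missed the threshold in these fits.

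In unbound RNA the leak channel Kcnk1 and the axonal pore Kcna1 also rose. Kcnk1 held 20.2, 21.7, 19.9 and 18.9 CPM in unbound deprived libraries, against 16.7, 14.8, 14.8 and 15.6 CPM in unbound control libraries. The groups did not overlap, and the log2 difference was 0.43 ± 0.08 (SE, adjusted p = 0.00506, edgeR). For Kcna1 it was 0.34 ± 0.09 (SE, adjusted p = 0.0457, edgeR). Without deprived library 7, deprived library 8 or control library 8, Kcnk1 was the only member still higher. Kcna1 thus missed the threshold in these fits. Kcnk3 fell by 0.51 and the silent subunit Kcnf1 by 0.38 on the log2 scale in unbound RNA.

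Marker genes of the cortex and of other cells also differed between deprived and control heterozygous libraries. Among all genes 5.67% were higher and 5.24% lower in bound RNA, and 3.06% and 1.28% in unbound RNA. Of 10 cortical layer genes (Rorb, Cux2, Tbr1 and others), 6 were lower and 0 higher in bound deprived heterozygous RNA, with a median log2 difference of -0.42 and a sum of 4379 to 5213 CPM in deprived and 6657 to 7855 CPM in control libraries. In unbound RNA 6 were lower and 0 higher, with sums of 3781 to 4693 CPM in deprived and 5562 to 6387 CPM in control libraries. Astrocyte markers were higher in 6 of 15 cases in bound RNA, and in unbound RNA 4 of 15 were higher and 15 of 15 lay above 0, with a median log2 difference of 0.25 and sums of 934 to 1057 CPM in deprived and 808 to 894 CPM in control libraries. Their part in the unbound rise of Kcnk1 was not tested. Kcnk1 itself was not higher in bound than in unbound RNA of the astrocyte line. Kcnk10, also known from astrocytes, held 55.8 to 62.4 CPM in unbound deprived and 62.5 to 69.3 CPM in unbound control heterozygous libraries. The deprived and control ranges of Kcnj16, Kcnk2, Kcnn2 and Kcnn3 overlapped there. Of 15 neuronal markers 2 were higher and 2 lower in bound RNA and 3 higher and 2 lower in unbound RNA, with a median of -0.10 in both. Thalamic markers were higher in 4 and lower in 2 of 9 cases in bound RNA, and higher in 4 and lower in 1 of 9 in unbound RNA. In the knockout line, where no member passed, the layer genes summed to 5240 to 7706 CPM in bound deprived and 4497 to 5612 CPM in bound control libraries, and the thalamic markers to 196 to 258 CPM in bound deprived and 292 to 505 CPM in bound control libraries. The part of tissue composition in the channel differences was not tested. Of 16 channel partners tested in bound heterozygous RNA 1 was higher and 3 lower, and of 11 pumps and cotransporters 0 passed.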

How the data were processed

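Raw read counts per gene, 1 column per library, were deposited by the authors. The tools listed, per the submitters' processing notes, are featureCounts 2.0.0, HISAT2 2.2.0, FastQC 0.11.9, Trim Galore 0.6.4 and cutadapt 2.9, with the build GRCm38 (mm10) and no settings given in the sources used here. Libraries were grouped by title. The test on counts was that of edgeR 4.0.16 under R 4.3.3 (TMM, filterByExpr, robust quasi-likelihood F test, two-sided, Benjamini-Hochberg over all genes tested, threshold 0.05). Deprivation fits held only the groups compared, bound against unbound fits the 4 groups of a line, and differences between lines all 12 groups. The main bound against unbound and line difference fits did not pair the bound and unbound libraries of 1 piece, or the pieces of 1 mouse. Their p-values treat these libraries as independent, and pairing by piece was run as an alternative. In the knockout line n = 10 counts pieces of 5 mice. The method was tested on simulated counts. CPM used TMM library sizes, and exon lengths the GENCODE vM21 annotation of GRCm38. DESeq2 1.42.0 and limma 3.58.1 served as alternatives. Knockout libraries pair by mouse (correlation above 0.1 in 4 of 5 mice per fraction) and were also fitted with that block. Named were the 5 extreme ratios per direction and line among members of at least 1 CPM, the leading member of each family, members past the threshold (10 or, where none, 3 by smallest p) and fixed cell-type genes. Other members past the threshold that are named were chosen after their values were seen. The members and lists were chosen with earlier results of these data known. Nothing states that same-group libraries of the astrocyte line come from separate animals, so p-values may measure technical spread. In the heterozygous line pieces 17L and 17R came from mouse 17, and 21L and 21R from mouse 21. The main fit treated them as separate samples and did not pair the left and right pieces of mice 14 and 15. Its p-values may therefore measure in part the spread within a mouse. Some members are not reported here.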

Additional observations from a re-analysis of the deposited data

Results flagged for a closer look

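The bound over unbound ratio differed between the astrocyte and heterozygous lines, by a test of that difference itself, in 37 members: 5 were higher in the astrocyte line and 32 were lower. The log2 differences of the named members were 2.91 for Kcne1l, 1.14 for Kcnj16, 1.1 for Kcnip3, -2.73 for Kcnk6, -1.0 for Kcnj4, -0.88 for Kcnh1, -0.80 for Kcnh7 and -0.74 for Kcns3. The gap of the extreme library was set against the range of its group. By a cut on that share, no library stood apart in the 64 groups of 4 or 5 libraries examined for members named in the deprivation comparisons. With so few libraries only a wide gap passes the cut, and single libraries still moved the counts of members called.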

How the results depend on the processing

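Alternatives were run for the counts and for the 3 to 10 members per comparison named by extreme ratio or smallest p, and the direction of these members stayed the same under each. Other members given with values, such as Kcnk13, Kcnj2 and Kcnj15 for bound against unbound RNA and Kcnk6, Kcnq3, Kcnab2 and Kcna1 for deprivation, were not recomputed one by one. The counts of members called still show that Kcnk6, Kcnab2 and Kcna1 missed the threshold in some fits that left out 1 library. In the heterozygous line grouped by title, counts of members called depended on the libraries used. In bound RNA (4 higher, 23 lower), side-letter grouping gave 0 and 0, leaving out pieces 17R and 21L gave 1 and 14, mice 14 and 15 alone gave 2 and 14, and summing the libraries of mice 17 and 21 gave 1 higher. Leaving out each library in turn gave 1 to 6 higher and 14 to 22 lower, with 14 lower without deprived library 2 and 15 without control library 4. In unbound RNA (5 higher, 8 lower), side letters gave 0 and 0, sex as a term 3 higher, the replicate block 2 higher, all 4 groups in the fit 2 higher, leaving out 17R and 21L 3 and 1, mice 14 and 15 alone 5 lower, and summed mice 4 lower. Leaving out each library gave 1 to 5 higher and 3 to 9 lower, with 3 lower without deprived library 8. For bound against unbound RNA, library totals alone gave 6 lower for the heterozygous line and 5 lower for the knockout line, and control libraries alone 7 lower for the heterozygous line. For astrocyte minus heterozygous, library totals gave 3 higher and 50 lower and no filter on low counts 3 higher. Leaving out each library gave 28 to 31 higher and 12 to 14 lower in the astrocyte line, 45 to 50 and 10 to 12 in the heterozygous line, 42 to 50 and 8 to 10 in the knockout line, and 3 to 5 and 28 to 34 for the difference, with 3 higher without bound deprived library 4 of the heterozygous line. Besides the fits that left out 1 library, 12 values of single named members in bound and 25 in unbound heterozygous RNA missed the threshold under an alternative, and 1 in the knockout line's bound against unbound comparison. In the fits that left out 1 library, a further 25 values missed it in unbound heterozygous deprivation. Of 8 such fits Kcnd3 missed it in 6, Kcnd2 and Kcnj9 in 5 each, Kcng2 in 4, Kcnk3 in 3 and Kcnh1 in 2. For bound heterozygous RNA all 80 such values kept their call. The cause of these changes was not tested. With the replicate block, bound heterozygous RNA had 5 members higher and 25 lower, and no call changed in the knockout or astrocyte line deprivation comparisons. Replicate numbers of the astrocyte line pair nothing in the labels. In the heterozygous line, bound replicates 3 and 4 and unbound replicates 9 and 10 join a piece of mouse 17 with a piece of mouse 21. These blocks are therefore not pairs from the same mouse.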
